A study of Mus musculus with 6 samples.

Results

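The neuromuscular junction genes described here are 10 mouse genes. They were chosen by symbol among the 52550 mouse genes of the deposited table, and each symbol matched 1 row. They comprise Chrna1, Chrnb1, Chrnd, Chrne and Chrng, which encode the subunits of the muscle acetylcholine receptor, Musk, Dok7, Rapsn and Lrp4, whose products gather the receptor under the nerve terminal, and Ache, which encodes acetylcholinesterase. Transcripts were measured with QuantSeq, in which sequencing reads come from the 3′ ends of polyadenylated RNA. RNA came from quadriceps muscle of male mice aged 13 weeks, from 3 FLExDUX4 mice and 3 wild-type (WT) littermates, as the sample labels and the series description state. The methods of the study describe this experiment for triceps muscle at a younger age. FLExDUX4 mice are hemizygous for an inverted human DUX4 transgene at the Rosa26 locus, a model of facioscapulohumeral muscular dystrophy. The transgene is leaky without recombination, so that DUX4 is expressed at a very low level and not in a chosen cell type. The labels name no Cre allele and no treatment in either group. Counts of the transgene were not analysed here.

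At the neuromuscular junction, the motor nerve releases acetylcholine onto receptors packed in the facing membrane of the muscle fiber. The nerve also secretes agrin, which binds LRP4 and thereby activates the kinase MuSK. With its adaptor Dok-7, MuSK then drives the clustering of receptors through the scaffold protein rapsyn. In adult innervated muscle these genes are transcribed mainly by the few nuclei that lie beneath the nerve terminal, so their transcripts are scarce in whole muscle. Fetal muscle builds the receptor with the gamma subunit (Chrng), which the epsilon subunit (Chrne) replaces after birth. Loss of the nerve is known to bring back Chrng and to raise several other subunits along the whole fiber. Chrng set against Chrne is therefore a known readout of denervation.

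The values are the counts of each gene summed by the authors over the 3 mice of a genotype. The totals came to 13110125 counts on mouse genes for FLExDUX4 mice and 18367364 for WT mice. They were scaled by TMM, a method that assumes most genes are alike in both groups, and are given as CPM (counts in 1000000 counts on genes) or as the log2 ratio of FLExDUX4 over WT. Columns of values for single mice carry names that match no sample label, and were left out. There is thus 1 total per genotype and no test across mice. Each interval is a 95% interval of the counting error alone. The ratio can rest on 1 mouse, and a difference in the number of synaptic nuclei cannot be told apart from a difference in RNA per nucleus. Of the 13396 genes with enough counts to be compared, 41.1% had a counting interval that left out 0, and 13.4% differed at least 2-fold between the totals. Genes were called past the 2-fold rule when the log2 ratio was at least 1 in size.

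Marker genes were compared to describe the tissue. They can show skeletal muscle, but not whether it was quadriceps or triceps. All 8 skeletal muscle fiber markers were abundant, with summed levels of 97855 and 98131 CPM in FLExDUX4 and WT mice, and their log2 ratios lay between -0.19 and 0.05. Satellite cell markers, which mark the stem cells of muscle, summed to 13.2 and 15.0 CPM over 3 genes. Of these, Pax7, which marks resting satellite cells, had 35 counts in FLExDUX4 mice and 89 in WT mice and a log2 ratio of -0.82 (interval -1.44 to -0.25), while Myf5 and Cdh15 had ratios of 0.34 and -0.02 with intervals that held 0. All 6 Schwann cell markers, which mark the glia of the nerve, were detected, at a summed 149 and 143 CPM. Of 8 motor axon genes, 6 had at most 3 counts in each total, and Chat, the enzyme that makes acetylcholine, had 0 in both. The part of these cells in the results below was not tested.

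The stretches of DNA just before the start of 4 of these genes are shown to give the sequence context of the genes the results turn on. Among the 8 genes with enough counts to be compared, Musk had the highest ratio and Chrna1 the lowest, while Chrne and Chrng form the adult and fetal pair. Each is 250 bases long, from RefSeq on GRCm38.p6, read 5′ to 3′ on the strand of the gene, and ends at the base before the start of the RefSeq transcript. The gene coordinates given further on are from GENCODE, whose starts can differ. The Chrng stretch lies inside the longer GENCODE gene, and the last bases of the Musk and Chrne stretches fall within theirs. The capitals mark the E box CANNTG, a motif bound by myogenic factors such as myogenin and MyoD, and the N box CCGGAA, a motif bound by the factor GABP in genes transcribed at the synapse. Both strands were searched, and no match of one motif overlapped a match of the other.
Musk (chr4:58285712-58285961, plus strand): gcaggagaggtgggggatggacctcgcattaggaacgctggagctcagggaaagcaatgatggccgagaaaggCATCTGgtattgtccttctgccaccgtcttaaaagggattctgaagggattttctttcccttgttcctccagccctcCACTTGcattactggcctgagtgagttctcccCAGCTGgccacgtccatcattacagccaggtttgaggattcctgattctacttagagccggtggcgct
Chrna1 (chr2:73580339-73580588, minus strand): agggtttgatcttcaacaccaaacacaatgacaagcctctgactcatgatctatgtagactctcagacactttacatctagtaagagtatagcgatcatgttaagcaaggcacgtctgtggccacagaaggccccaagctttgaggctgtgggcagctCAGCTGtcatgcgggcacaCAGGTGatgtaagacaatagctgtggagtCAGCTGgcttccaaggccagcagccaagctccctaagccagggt
Chrne (chr11:70619195-70619444, minus strand): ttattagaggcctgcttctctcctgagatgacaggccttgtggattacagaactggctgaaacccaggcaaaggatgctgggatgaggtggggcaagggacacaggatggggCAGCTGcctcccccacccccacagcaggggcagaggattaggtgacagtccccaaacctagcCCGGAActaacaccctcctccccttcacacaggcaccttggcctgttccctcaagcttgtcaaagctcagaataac
Chrng (chr1:87205561-87205810, plus strand): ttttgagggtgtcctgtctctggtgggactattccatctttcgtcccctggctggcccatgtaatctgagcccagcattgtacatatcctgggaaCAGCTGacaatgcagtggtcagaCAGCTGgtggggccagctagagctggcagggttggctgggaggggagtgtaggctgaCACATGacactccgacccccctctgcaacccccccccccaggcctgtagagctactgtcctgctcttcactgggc
The Musk, Chrna1 and Chrng stretches each held 3 E boxes, and the Chrne stretch held 1. The N box was found only in the Chrne stretch, where it begins 76 bases before the RefSeq start. An E box is common, since 66.2% of 32851 promoter stretches of the same length held at least 1, whereas 12.0% held an N box. RefSeq stretches were matched for 7 of the 10 genes. These matches describe letters in the window and not binding.

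The first question was whether the subunits of the receptor differed between the genotypes. Chrna1 was lower in the total of FLExDUX4 mice beyond the counting error with TMM and with scaling to spike-in RNA. Chrnb1 was higher beyond it with TMM alone, whereas Chrne was indistinguishable and Chrng had no count in either genotype. None of the 3 subunits that could be compared passed the 2-fold rule, which 13.4% of all genes passed.

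Chrna1 encodes the alpha subunit, which carries the binding site for acetylcholine (chromosome 2 of GRCm38, 73563215 to 73580338, protein-coding). Its total was 119 counts in FLExDUX4 mice and 237 in WT mice, or 9.17 and 12.8 CPM, so the FLExDUX4 level was 0.720 of the WT level. On the log2 scale the ratio came to -0.47 (interval -0.81 to -0.15), and to -0.75 (interval -1.08 to -0.43) when the totals were scaled to spike-in RNA. Chrnb1 encodes the beta subunit, through which the receptor is held by rapsyn (chromosome 11, 69784036 to 69795943). It had 107 counts in FLExDUX4 mice and 112 in WT mice, which came to 8.25 and 6.03 CPM after scaling. Its log2 ratio was 0.45 (interval 0.05 to 0.85), and with spike-in scaling it was 0.17, with an interval from -0.22 to 0.57 that holds 0. The gene Zbtb4, on the opposite strand with 408 and 719 counts, ends 12 bases from the 3′ end of Chrnb1, and Fgf11 lies 124 bases away on the same strand with 30 and 35 counts. Whether strand was used in counting is not given in the sources used here, and how reads near these ends were divided was not tested. The 2 subunits differed from each other by a log2 of -0.93 (interval -1.45 to -0.41), a value that no scaling can alter.

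Chrne, the epsilon subunit of the adult receptor (chromosome 11, 70614883 to 70619216), was counted 48 times in FLExDUX4 mice and 60 times in WT mice. These are 3.70 and 3.23 CPM, and their intervals overlap. The log2 ratio was 0.20 (interval -0.38 to 0.77) with TMM and -0.08 with spike-in scaling, so its direction was not settled. Mink1, on the opposite strand with 37 and 55 counts, ends 399 bases from the 3′ end of Chrne. Chrnd, the delta subunit (chromosome 1, 87190607 to 87200070), was counted 4 times in FLExDUX4 mice and 0 times in WT mice. This gene was too scarce to be compared. Its FLExDUX4 level of 0.308 CPM has an exact Poisson interval from 0.0840 to 0.789, while the 0 counts in WT mice have an exact Poisson upper end of 0.199 CPM. The counting interval of its log2 ratio begins at -0.08 and has no upper end, so a difference was not detectable at this depth and no fold is given.

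Chrng, the gamma subunit of the fetal receptor, lies 4586 bases downstream of Chrnd (chromosome 1, 87204657 to 87212694). It had 0 counts in FLExDUX4 mice and 0 in WT mice. With 3 counts taken as the limit for a total at 0, close to a one-sided 95% bound, the depth allows a level of up to 0.231 CPM in FLExDUX4 mice and 0.162 CPM in WT mice. The two-sided exact Poisson intervals end higher, at 0.284 and 0.199 CPM. Of the counts on Chrng and Chrne together, Chrng took 0 of 48 in FLExDUX4 mice and 0 of 60 in WT mice. Taken as 3 counts of these totals, the limits of the share are 6.25% and 5%, and the two-sided 95% Clopper-Pearson intervals end higher, at 7.40% and 5.96%. No shift from Chrne to Chrng was therefore detectable in the FLExDUX4 total at this depth. Because Chrnd, a subunit of both receptor forms, was itself near 0, a row at 0 was not read as absence of the transcript.

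**Figure D1:**
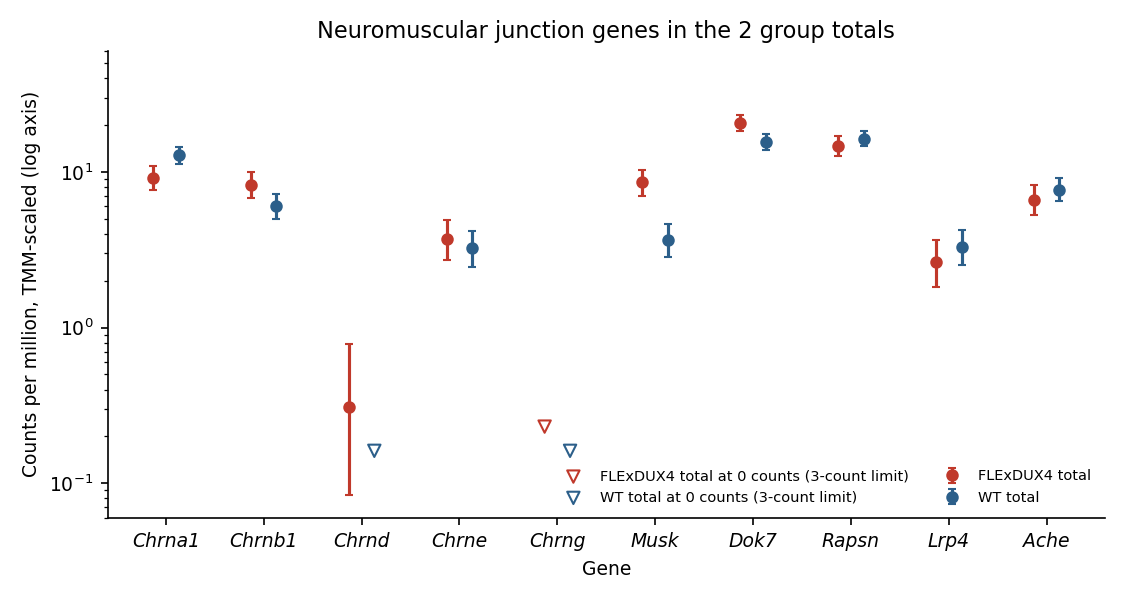
Level of each of the 10 genes in the FLExDUX4 total (red) and the WT total (blue), as TMM-scaled CPM on a log axis. Points are totals of 3 mice with exact Poisson intervals of the counting error, and open triangles stand at the level of 3 counts for a total at 0. Musk is the gene whose points lie farthest apart among those counted in both totals, at 8.56 and 3.66 CPM, while Chrng is at 0 in both.

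The makeup of the receptor counts was then compared as shares, which need no scaling. Chrna1 made up 42.8% of the 278 subunit counts in FLExDUX4 mice (interval 36.9 to 48.9) and 57.9% of the 409 counts in WT mice (interval 53.0 to 62.8). The share of Chrnb1 was 38.5% (interval 32.7 to 44.5) in FLExDUX4 mice and 27.4% (interval 23.1 to 32.0) in WT mice. For both subunits the intervals of the genotypes do not overlap. These shares depend on each other, since a larger share of Chrnb1 lowers that of Chrna1. How often such shares separate among other genes was not measured. The share of Chrne was 17.3% (interval 13.0 to 22.2) in FLExDUX4 mice and 14.7% (interval 11.4 to 18.5) in WT mice, and these intervals overlap. Summed over the 5 subunits, the level was 21.4 CPM in FLExDUX4 mice and 22.0 CPM in WT mice.

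Next, the genes that gather the receptor were compared. Musk was 2.33-fold higher in the FLExDUX4 total and was the only 1 of the 8 genes compared that passed the 2-fold rule, beside 13.4% of all genes, of which 5.99% were higher and 7.43% lower. Dok7, which encodes the adaptor of MuSK, was higher beyond the counting error with TMM but not with spike-in scaling. Rapsn was lower within the counting error with TMM and beyond it with spike-in scaling, and the interval of Lrp4 held 0 under both.

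Musk encodes the muscle-specific receptor tyrosine kinase that starts receptor clustering (chromosome 4, 58285960 to 58374303, protein-coding). It had 111 counts in FLExDUX4 mice and 68 in WT mice, or 8.56 CPM (exact Poisson interval 7.04 to 10.3) and 3.66 CPM (interval 2.85 to 4.65). The larger count thus came from the smaller total. The log2 ratio was 1.22 (interval 0.78 to 1.68) with TMM. With spike-in scaling it was 0.94 (interval 0.50 to 1.40), which leaves out 0 but is under the 2-fold rule. Among all 13396 genes compared, 567 (4.23%) had a ratio at or above that of Musk. With spike-in scaling, 3.88% of all genes were at least 2-fold higher. Among the 5176 genes with 95 to 559 counts over both totals, the range of the genes compared here, 2.26% were at least 2-fold higher with TMM.

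Dok7 (chromosome 5, 35056766 to 35087839) reached 269 counts in FLExDUX4 mice and 290 in WT mice, or 20.7 and 15.6 CPM. Its log2 ratio was 0.41 (interval 0.16 to 0.65), and 0.13 with spike-in scaling, where the interval from -0.11 to 0.38 holds 0. Rapsn, which encodes the scaffold rapsyn (chromosome 2, 91035620 to 91045729), reached 191 counts in FLExDUX4 mice and 304 in WT mice, or 14.7 and 16.4 CPM. Its log2 ratio was -0.15 (interval -0.42 to 0.11), and -0.43 with spike-in scaling, where the interval from -0.70 to -0.16 leaves out 0. The antisense gene Gm13778 overlaps Rapsn with 9 and 11 counts, so the same limit holds there. Lrp4, which encodes the agrin receptor (chromosome 2, 91457511 to 91513779), reached 34 counts in FLExDUX4 mice and 61 in WT mice, or 2.62 and 3.29 CPM. Its log2 ratio of -0.32 (interval -0.98 to 0.30) was not distinguishable from 0 at this depth, nor was the ratio of -0.59 (interval -1.25 to 0.03) with spike-in scaling.

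Among the 4 clustering genes, Musk took 18.3% of 605 counts in FLExDUX4 mice (interval 15.3 to 21.7) and 9.41% of 723 counts in WT mice (interval 7.38 to 11.8). The share of Rapsn was 31.6% (interval 27.9 to 35.4) in FLExDUX4 mice and 42.0% (interval 38.4 to 45.7) in WT mice. For both genes these intervals do not overlap, whereas for Dok7, at 44.5% and 40.1%, and Lrp4, at 5.62% and 8.44%, they do. Shares of a set depend on each other, so a larger share of Musk lowers those of the others. The log2 ratio of Rapsn itself had an interval of -0.42 to 0.11 with TMM, which holds 0. It left out 0 only with spike-in scaling. How often such shares separate among other genes was not measured.

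**Figure D2:**
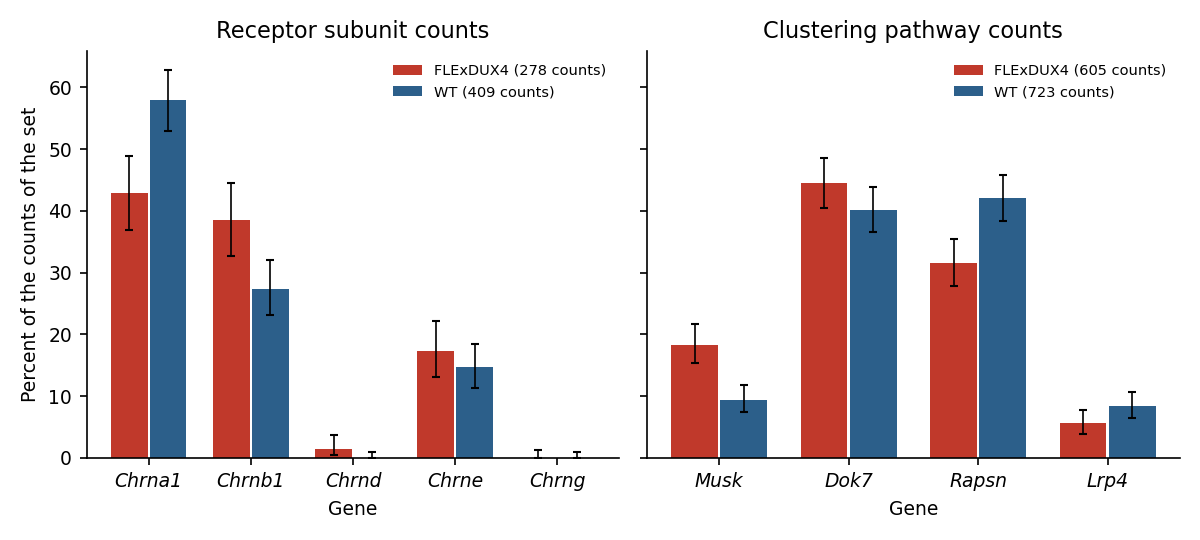
Share of each gene in the counts of the 5 receptor subunits (left) and of the 4 clustering genes (right), in percent, for the FLExDUX4 total (red) and the WT total (blue), with 95% Clopper-Pearson intervals. The bars start at 0. The Chrna1 share is 42.8% against 57.9% and the Musk share 18.3% against 9.41%.

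Ache encodes the enzyme that breaks down acetylcholine in the cleft (chromosome 5, 137287519 to 137294466). It had 86 counts in FLExDUX4 mice and 143 in WT mice, or 6.63 and 7.71 CPM. At a log2 ratio of -0.21 (interval -0.62 to 0.18), Ache was not distinguishable from 0 with TMM. With spike-in scaling the ratio was -0.49 (interval -0.90 to -0.10), which leaves out 0. The gene Ufsp1 begins 162 bases downstream on the same strand, with 93 and 147 counts. How reads from the 3′ end of Ache were divided between both rows was not tested.

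Over the 8 genes compared, 4 were higher and 4 lower in FLExDUX4 mice with TMM, beside 49.9% higher and 50.1% lower of all genes, and 3 were higher and 5 lower with spike-in scaling, which shifted the median of all genes compared from -0.001 to -0.28. The median log2 ratio of the 8 genes was 0.02, beside -0.001 over all genes. The planned median, over the 9 genes with more than 3 counts in either total, was 0.20. It lies higher only because Chrnd enters with 4 counts against 0, a ratio set by the pseudocount. The counting interval left out 0 for 4 of the 8, above 0 for Musk, Chrnb1 and Dok7 and below 0 for Chrna1, beside 41.1% of all genes, 20.5% above and 20.6% below. With spike-in scaling the interval again left out 0 for 4, but above 0 for 1 (Musk) and below 0 for 3 (Chrna1, Rapsn and Ache), beside 54.7% of all genes, 7.59% above and 47.1% below. The calls of Musk and Chrna1 thus held under both scalings, whereas those of Chrnb1, Dok7, Rapsn and Ache depended on the scaling. The share past the 2-fold rule, 1 of 8, is near the 13.4% of all genes. The same gene alone passed a 1.5-fold rule, which 26.8% of all genes passed.

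**Figure D3:**
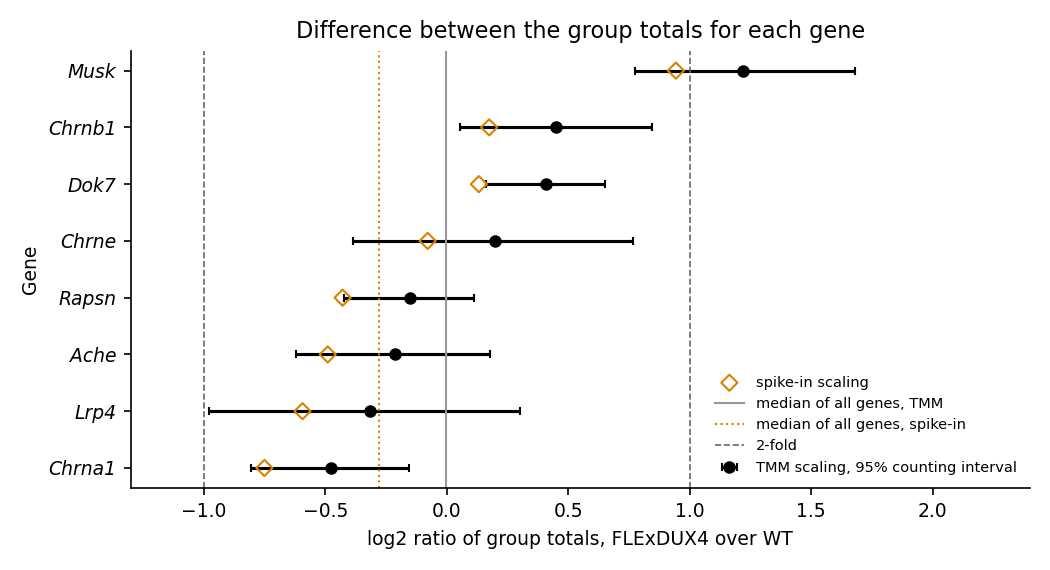
Log2 ratio of the group totals, FLExDUX4 over WT, for the 8 genes compared. Black points are TMM-scaled with 95% counting intervals, open diamonds are scaled to spike-in totals, the vertical lines are the medians of all genes under each scaling, and the dashed lines mark a 2-fold difference. Musk lies at 1.22 and Chrna1 at -0.47, and Musk falls below the dashed line at 0.94 with spike-in scaling.

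Differences between the genes do not depend on scaling, and all 28 pairs were compared. The interval of the difference left out 0 for 16 pairs, without adjustment for the number of pairs. Musk, already the gene with the highest ratio of those compared, differed from each of the 7 other genes. The pairs reuse the same ratios, so they add no support beyond those ratios. How many pairs of other genes would leave out 0 was not measured. Its log2 ratio exceeded that of Dok7 by 0.81 (interval 0.30 to 1.34), that of Chrne by 1.02 (interval 0.29 to 1.77) and that of Rapsn by 1.37 (interval 0.85 to 1.91). The largest difference was between Musk and Chrna1, with Chrna1 at -1.69 relative to Musk (interval -2.27 to -1.14). Dok7 also exceeded Rapsn, by 0.56 (interval 0.20 to 0.93), while Chrnb1 and Dok7 differed by 0.04 (interval -0.43 to 0.51).

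**Figure D4:**
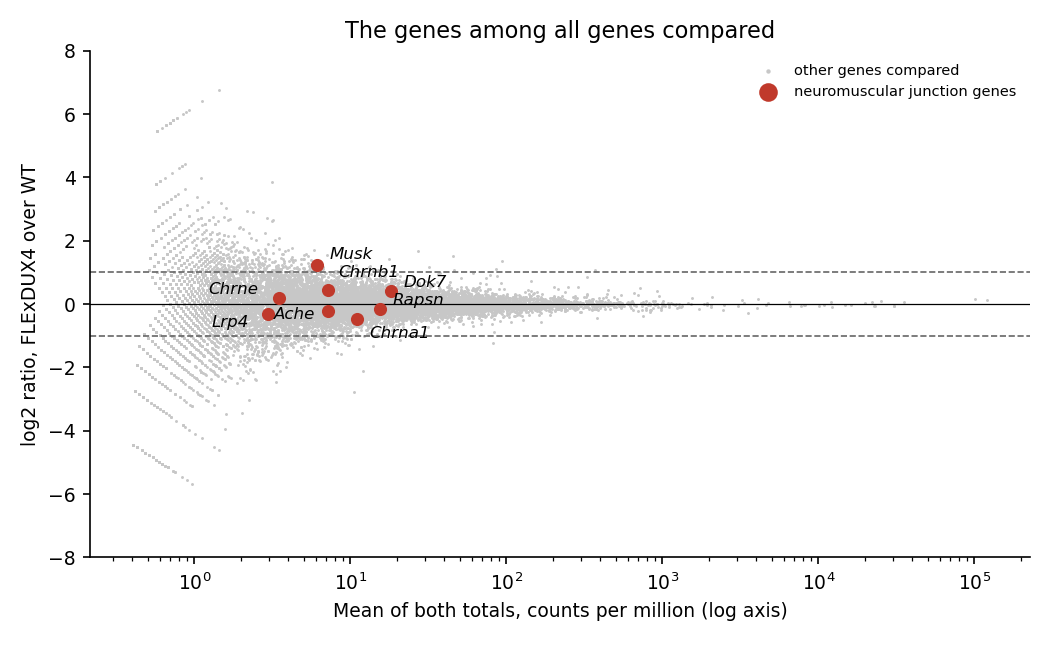
Log2 ratio of the group totals (TMM) against the mean level in CPM (log axis) for the 13396 genes compared, with the 8 neuromuscular junction genes in red and dashed lines at 2-fold. Musk at 1.22 lies above the line, where 5.99% of all genes lie, and the other 7 lie between the lines.

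The other genes of the junction came from 7 lists with 64 genes in all, 49 of which had enough counts to be compared. Of these, 25 were higher and 24 lower in FLExDUX4 mice with TMM, and 14 higher and 35 lower with spike-in scaling. With that scaling the median of all genes compared was -0.28, so lower genes outnumber higher ones among all genes as well. This also bears on the counts of lower genes in each list below. The share of all genes lower at any size with that scaling was not measured. With TMM the 2-fold rule was passed by 3 of the 49 in each direction, beside 13.4% of all genes in both directions together. With spike-in scaling it was passed by 1 higher (Col4a5) and 4 lower (Col13a1, Alg2, Hdac9 and Pak1), beside 3.88% of all genes higher and 11% lower. The counting interval left out 0 above for 9 and below for 6 of the 49 with TMM, and above for 5 and below for 24 with spike-in scaling, beside the shares of all genes given above (7.59% and 47.1% with spike-in scaling). Intervals in the following paragraphs are with TMM unless spike-in scaling is named.

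The postsynaptic scaffold and agrin signalling list had 13 of 15 genes compared, of which 4 were higher and 9 lower with TMM and 1 higher and 12 lower with spike-in scaling. With TMM the median log2 ratio was -0.09 and none passed the 2-fold rule. The interval left out 0 above for 2 and below for 3 of its genes with TMM, and below for 10 with spike-in scaling. Its abundant genes Plec and Dag1 were close to 0. Plec, which encodes a linker of the cytoskeleton, had a log2 ratio of -0.001, and Dag1, which encodes dystroglycan, had one of -0.09 (interval -0.15 to -0.02). With spike-in scaling they were at -0.28 and -0.36, both with intervals below 0. Pak1, which encodes a kinase and was named after its values were seen, passed the rule only with that scaling, at -1.02 (interval -1.34 to -0.72). Agrn, the gene of agrin itself, named here for its role, had 59 counts in FLExDUX4 mice and 96 in WT mice and a log2 ratio of -0.18 (interval -0.68 to 0.30).

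The neuregulin signalling and synaptic transcription list covers a nerve signal and the factors that switch on synaptic genes. Of its 8 genes, 7 were compared, 5 higher and 2 lower with TMM, and 4 higher and 3 lower with spike-in scaling. Its median was 0.64, and 0.36 with spike-in scaling. Both medians are the value of Erbb4, with 12 counts in FLExDUX4 mice and 11 in WT mice. The TMM interval of Erbb4, -0.67 to 1.96, holds 0. Most genes of the list were scarce, and the whole list summed to 326 counts in FLExDUX4 mice and 410 in WT mice. Etv4, an ETS factor, had 37 counts in FLExDUX4 mice and 25 in WT mice and passed the rule with a log2 ratio of 1.07 (interval 0.31 to 1.88), but not with spike-in scaling, at 0.80 (interval 0.04 to 1.599). Gabpa, which encodes the DNA-binding part of GABP, had a log2 ratio of -0.19 (interval -0.57 to 0.18), while its partner Gabpb1 had one of 0.70 (interval 0.08 to 1.33). Both calls turned with spike-in scaling, where the Gabpa interval of -0.84 to -0.10 leaves out 0 and the Gabpb1 interval of -0.19 to 1.05 holds it. Etv5, an ETS factor of synaptic nuclei, had one of 0.16 (interval -0.24 to 0.56).

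The list of the synaptic basal lamina and cleft had 6 genes higher and 5 lower with TMM, and 3 higher and 8 lower with spike-in scaling. Its median was 0.11, and -0.17 with spike-in scaling. Colq, which encodes the collagen tail that anchors acetylcholinesterase and was named for that role, had 25 counts in FLExDUX4 mice and 49 in WT mice and a log2 ratio of -0.44 (interval -1.21 to 0.27). Lamb2, the laminin chain concentrated at the synapse, had one of -0.03 (interval -0.15 to 0.08). Hspg2 (perlecan) and Nid1 (nidogen) had log2 ratios of -0.12 and 0.11, and the intervals of both held 0. With spike-in scaling the intervals of Colq, Lamb2, Hspg2 and Nid1 all lay below 0, that of Hspg2 from -0.53 to -0.27, that of Lamb2 from -0.43 to -0.20, that of Colq from -1.49 to -0.007 and that of Nid1 from -0.33 to -0.009. Over the 11 genes of the list, the spike-in interval lay above 0 for 2 and below 0 for 5, beside 7.59% and 47.1% of all genes. With TMM, 2 of the 11 genes passed the 2-fold rule, beside 13.4% of all genes. Both are scarce collagen genes, Col4a5 at 1.54 (interval 0.68 to 2.49) from 35 and 17 counts and Col13a1 at -1.70 (interval -3.55 to -0.39) from 5 and 25 counts.

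In the list of glycosylation enzymes whose loss causes congenital myasthenia, 2 of 5 were higher and 3 lower, and with spike-in scaling all 5 were lower. That scaling put the median of all genes compared at -0.28. Alg2, a mannosyltransferase, had 32 counts in FLExDUX4 mice and 109 in WT mice, and its log2 ratio was -1.24 (interval -1.87 to -0.67). Gfpt1, which starts the hexosamine pathway, had one of -0.06, Dpagt1 one of -0.21 and Alg14 one of 0.23, and the intervals of all 3 held 0. With spike-in scaling those of Gfpt1 (-0.51 to -0.16) and Dpagt1 (-0.81 to -0.16) left it out, and that of Alg14 held it.

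Of the 11 nicotinic receptor subunits outside the adult muscle receptor, 8 had 0 counts in both totals and none could be compared. The other 3 had counts only in WT mice, with 7 for Chrna9, 6 for Chrna2 and 4 for Chrnb2. These 17 counts against 0 were too few for a ratio to be given for each gene.

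To set Chrng beside other genes of denervated muscle, 12 genes known to rise after loss of the nerve were compared, with the 10 genes above left out. Of the 11 with enough counts, 7 were higher and 4 lower, and with spike-in scaling 5 were higher and 6 lower. The median was 0.20, and -0.07 with spike-in scaling. Myog, which encodes myogenin, a factor that binds E boxes in receptor genes, had 50 counts in FLExDUX4 mice and 32 in WT mice. Its log2 ratio of 1.15 (interval 0.49 to 1.85) was the only 1 of the 11 past the 2-fold rule, which 13.4% of all genes passed. With spike-in scaling it was 0.88 (interval 0.22 to 1.57), under the rule. Myogenin is also made by differentiating satellite cells. The 3 satellite cell markers did not move together (Pax7 -0.82, Myf5 0.34 and Cdh15 -0.02), and the part of these cells in the Myog value was not tested. Trim63, a ubiquitin ligase of atrophy, had a log2 ratio of 0.37 (interval 0.29 to 0.45), whereas Fbxo32, another, had one of -0.03 (interval -0.08 to 0.02). Cdkn1a, a cell cycle inhibitor, had one of -0.07 (interval -0.23 to 0.09). With spike-in scaling Trim63 was at 0.10 (interval 0.01 to 0.18), Fbxo32 at -0.31 (interval -0.36 to -0.25) and Cdkn1a at -0.35 (interval -0.51 to -0.18), so that the calls of Fbxo32 and Cdkn1a depended on the scaling.

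Of 2 genes known to fall after loss of the nerve, Hdac9, whose product represses receptor genes, had 45 counts in FLExDUX4 mice and 130 in WT mice and a log2 ratio of -1.004 (interval -1.54 to -0.51). Dach2, another repressor, had 149 and 160 counts and a log2 ratio of 0.41 (interval 0.08 to 0.74). With spike-in scaling Hdac9 was at -1.28 (interval -1.81 to -0.79) and Dach2 at 0.14, with an interval from -0.19 to 0.47 that holds 0.

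**Figure D5:**
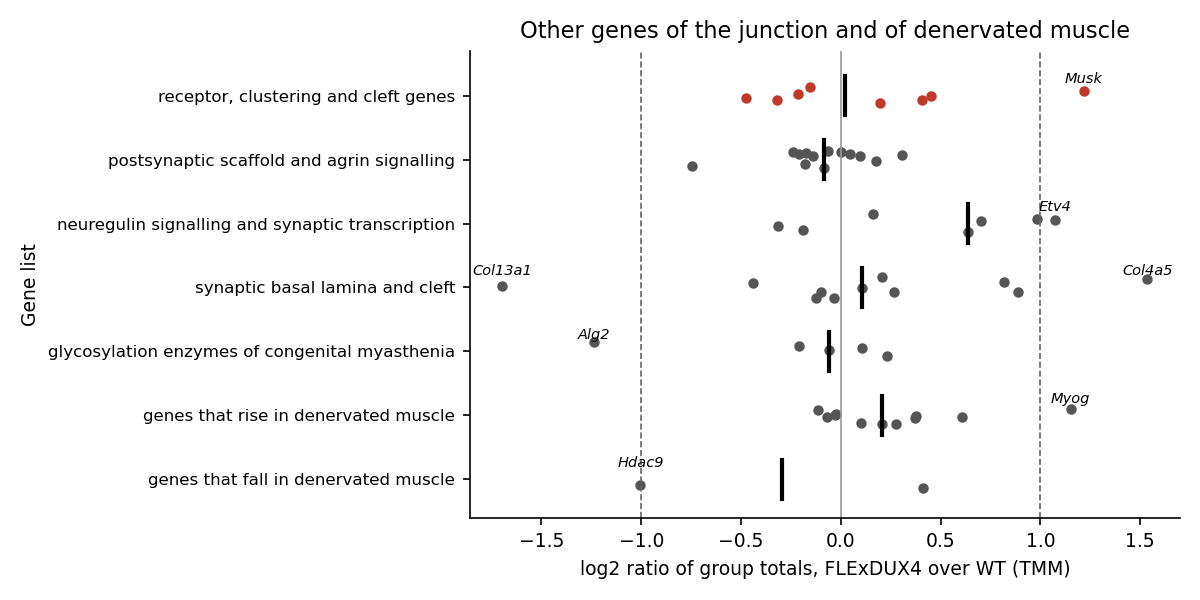
Log2 ratio of the group totals (TMM) for each gene compared in the receptor, clustering and cleft genes (red) and in 6 further lists (grey), with black bars at the medians and dashed lines at 2-fold. Vertical scatter within a list has no meaning. The named genes are those past the dashed lines with TMM, 4 of them higher (Musk, Etv4, Col4a5 and Myog) and 3 lower (Col13a1, Alg2 and Hdac9).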

How the data were processed

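Total RNA of 6 quadriceps samples was sequenced by Lexogen with QuantSeq 3′ libraries. Per the labels and the methods, reads were trimmed with Cutadapt 1.16 and aligned with STAR 2.5.3a to GRCm38 with ERCC and SIRV spike-ins, and featureCounts 1.6.2 is named in the submitters' processing notes. The deposited counts used here are whole-number counts per gene that the authors summed over the libraries of a genotype without normalization. The table further lists 6 columns for separate libraries, under names that no label repeats, and columns of the authors' own DESeq2 comparison (fold changes and p-values). Neither was used.

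The plan allowed edgeR's quasi-likelihood test where columns could be tied to mice by name. The names match no label and columns were not assigned by their values, so this test was not run. Group totals over mouse genes were scaled by TMM (edgeR 4.0.16 in R 4.3.3), with factors made from the 13396 genes that filterByExpr retained. Log2 ratios used a pseudocount of 0.5. Intervals are 95% Clopper-Pearson for ratios and shares, conditional exact for differences between genes and exact Poisson for levels (Python 3.11.15, scipy 1.17.1) and describe counting error alone. Up to 3 counts in a total was taken as the limit of detection. The scripts were tested on simulated counts. QuantSeq yields about 1 read per transcript, so counts were not divided by length, and levels were compared between groups and not between genes. The genes and lists were chosen with earlier results of these data known. Beyond the 10 genes, the 3 genes of each list with the most counts were named, with those past the 2-fold rule with at least 20 counts in either total. Agrn and Colq were added for their role, and Erbb4 because it gives the median of its list. Of the genes this rule names, 1 is not reported here. Coordinates are from GENCODE M21 on GRCm38, whose gene starts equal the deposited ones for all 10 genes. Proteins of the subunits, planned for comparison, were not analysed here.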

Additional observations from a re-analysis of the deposited data

How the results depend on the processing

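No paired analysis was possible because no column was tied to a mouse. For that reason leaving out each replicate, a replicate block and DESeq2 were not run. RLE, upper quartile and gene-total scaling, a pseudocount of 1, omission of the filter and a minimum of 10 counts per total left the log2 ratio of each of the 8 genes inside its counting interval and on its side of the 2-fold rule. Spike-in totals lowered every ratio by 0.28 (log2). With them Musk was at 0.94, so that 0 genes passed the 2-fold rule in place of 1, Dok7 was at 0.13 and Rapsn at -0.43, both outside their TMM intervals. The interval left out 0 above for 1 gene in place of 3 (lost for Chrnb1 and Dok7) and below for 3 in place of 1 (gained for Rapsn and Ache), a count added after seeing the data. Of the 49 further genes, 1 was then past the 2-fold rule above and 4 below, in place of 3 each. Chrne and the median over 9 genes were at -0.08, with the other sign but inside the interval. A 1.5-fold rule gave 1 gene. The planned minimum of 10 counts per total, which leaves out Chrnd, lowered the median from 0.20 to 0.008. Taking the median over the 8 genes compared gave 0.02 and setting Chrnd to its limit in WT mice gave 0.20, both chosen after seeing the data. The Chrng share stayed 0 when taken over all 5 subunits, and with both totals at 0 the planned difference of log2 ratios from Chrne could not be given. For the further lists, 40 of 42 alternative medians stayed between the median of the genes' lower interval ends and that of their upper ends, and 2 moved outside, both with spike-in totals (-0.36 for the postsynaptic scaffold list and -0.17 for the basal lamina list). Whether the spike-in shift comes from the amount added or from mRNA per sample was not tested. Counts of 34 to 269 for the genes compared in FLExDUX4 mice limit the precision, and the spread between mice was not measured here.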
